A study of Mus musculus with 36 samples.

Results

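Gene expression in the atria of the mouse heart was compared between embryonic day E12.5 and embryonic day E18.5, close to birth. The comparison was made on 6 Affymetrix expression arrays of the 36 in the series, 3 of atrial chambers at each age. All embryos were C57BL/6 mice from timed matings, and the labels name no allele or treatment. Atria of E13.5, E14.5 and E16.5 (3 arrays each) were used to place the changes in time, and 3 ventricular arrays at E12.5 and 3 at E18.5 to set the atrial changes beside those of the other chamber. For E16.5 the sample titles were followed, although the descriptions name an earlier day. Whether a group's arrays hold separate embryos or pooled chambers is not stated in the labels. All p-values therefore rest on the spread among these samples alone, which may be technical. The samples were whole chambers, so that fewer cells of a type and less RNA per cell cannot be told apart in any value given here.

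The atrial wall at E12.5 is a thin sheet of dividing myocytes lined by endocardium and covered by epicardium. Towards birth myocytes divide less, fibroblasts lay down collagens and elastic fibres, vessels and resident immune cells enter the wall, and the enzymes of fatty acid oxidation and energy transfer become more abundant. Primitive red cells, which carry embryonic globins and are nucleated, fill the chambers early and are replaced by fetal liver red cells that have lost their nucleus. Atrial myocytes keep a program of their own, with the natriuretic peptide Nppa, the myosin light chains Myl7 and Myl4, the calcium pump inhibitor Sln and the transcription factors Nr2f1, Nr2f2 and Tbx5.

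The labelled tissue was checked against these genes. Nppa, Myl7, Myl4, Myh6 and Actc1 were at 11181 or more on all 6 arrays, at both ages. Ventricular genes were low on some arrays and high on others. Myl2, the ventricular regulatory light chain, measured 7827, 12701 and 2360 on the E12.5 arrays and 13219, 3430 and 859 on the E18.5 arrays. Irx4, a ventricular transcription factor, measured 32, 433 and 14 at E12.5 and 492, 48 and 23 at E18.5. E12.5 array 2 and E18.5 array 1 were therefore the arrays highest in ventricular genes, 1 at each age.

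Markers of neighbouring organs set a further pair of arrays apart. On E12.5 array 2 the liver genes Alb and Afp measured 6352 and 8704, against 352 and 751 for Alb on the other E12.5 arrays. On E18.5 array 3 the lung surfactant gene Sftpc measured 10949, against 233 and 334 on the other E18.5 arrays. The summed intensity of 11 erythroid genes was between 16038 and 80099 at E12.5, highest on array 1 and lowest on array 3, and between 7007 and 7255 at E18.5. Where a named gene lost its call or a list's count moved by over 1.5 times without E12.5 array 2 and E18.5 array 3, the arrays with liver or lung genes, that value is given beside it.

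**Figure D1:**
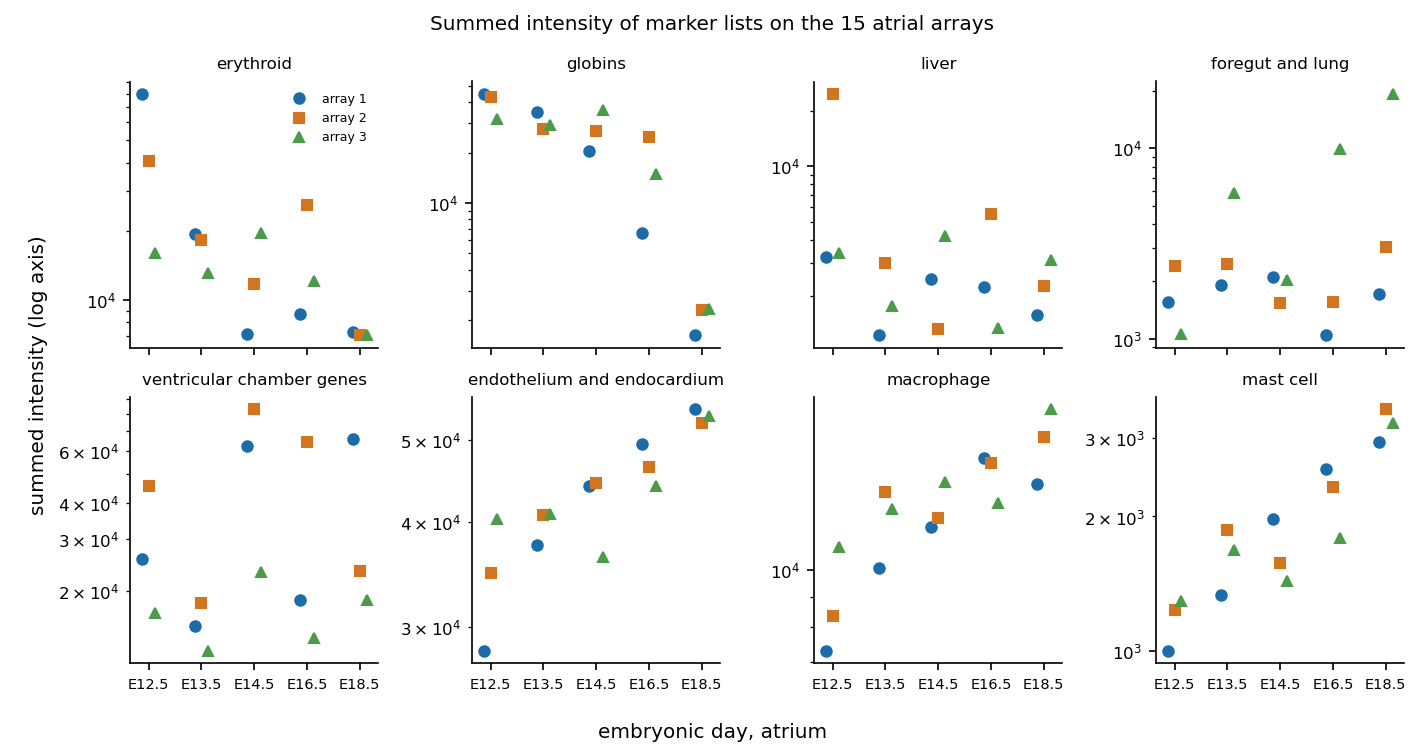
Summed intensity (log axis) of 8 marker lists on the 15 atrial arrays by embryonic day, with 1 symbol for each array number. The erythroid sum fell from 80099 on E12.5 array 1 to between 7007 and 7255 at E18.5. Liver genes stand out on E12.5 array 2 (24681) and lung genes on E18.5 array 3 (19383). Ventricular genes were highest on E14.5 array 2 (82950), then E18.5 array 1 (65558), E16.5 array 2 (64358) and E14.5 array 1 (62379).

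Of 27256 probe sets tested, 6610 (24.3%) changed between E12.5 and E18.5 at an adjusted p below 0.05 (limma, Benjamini-Hochberg), with 3426 higher and 3184 lower at E18.5. With 1 probe set for each of 12983 genes, 1902 genes were higher and 1664 lower. These counts are the background against which each gene group is read: 14.6% of all genes tested were higher and 12.8% lower. A change of at least 2-fold was seen for 483 of the higher and 291 of the lower genes, and of at least 4-fold for 100 and 77. The 3 arrays of each age did not overlap for 1789 of the higher and 1510 of the lower genes, so that lack of overlap describes nearly every called gene. The count of 6610 probe sets depended on E12.5 array 1, without which it was 3821, and was 4051 when only the 6 atrial arrays were fitted. All differences below are log2 differences, E18.5 minus E12.5, of intensity plus 17, and ± gives the standard error (SE), with 3 arrays in each group.

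The most abundant muscle transcripts lay near the top of the arrays' scale at both ages. Intensities of 39 genes exceeded 70% of the array's highest value on all 6 arrays. Nppa measured 13780, 13595 and 15804 at E12.5 and 13575, 11570 and 12463 at E18.5, a difference of -0.20 ± 0.19 (adjusted p = 0.483). Myl7 (-0.22), Myl4 (-0.22), Myh6 (-0.14), Actc1 (-0.30), the calcium pump Atp2a2 (-0.24) and cardiac troponin T, Tnnt2 (-0.17), did not pass either. The arrays' highest values were themselves lower at E18.5, between 12905 and 15080 against 16280 to 18157, and the sign of Nppa, Myl7, Myl4, Myh6 and Tnnt2 turned under quantile normalization.

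**Figure D2:**
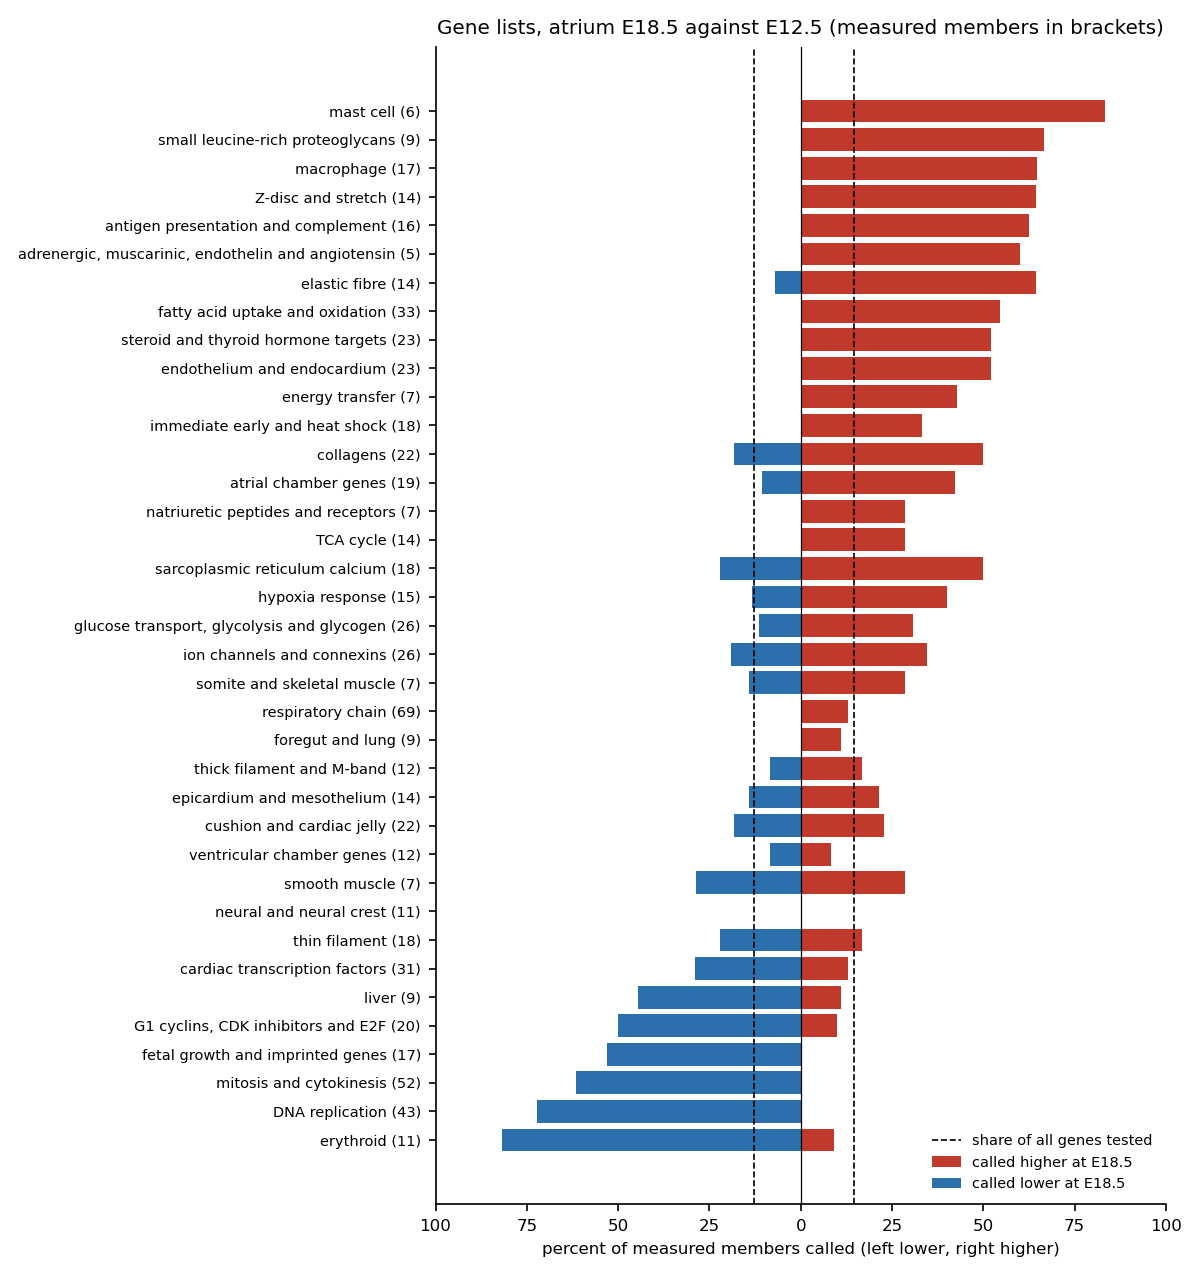
Percent of the measured members of each gene list that were called higher (right) or lower (left) at E18.5, for lists with at least 5 measured members (number in brackets). Dashed lines mark the shares of all genes tested, 14.6% higher and 12.8% lower. Mast cell, proteoglycan and macrophage genes lie at the top and erythroid, DNA replication and mitosis genes at the bottom. Members below the intensity filter are not counted, which in part sets the mast cell share.

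Most of the largest falls were in embryonic globins and erythroid genes. The liver gene Afp (-4.84) was also among them, and was not called without both arrays with liver or lung genes. Which red cell lineage the erythroid genes come from was not tested. The upstream sequences of the embryonic alpha-like globin Hba-x and the embryonic beta-like globin Hbb-y are shown because both globins were among the brightest genes on all E12.5 arrays and fell without overlap between the ages. Each run is the 250 bases before the annotated start (RefSeq, GRCm38.p6), Hba-x at chr11:32276350-32276599 on the plus strand and Hbb-y at chr7:103853208-103853457 on the minus strand. Capitals mark CACCC, the CCAAT box and the TATAAA box on either strand.
Hba-x: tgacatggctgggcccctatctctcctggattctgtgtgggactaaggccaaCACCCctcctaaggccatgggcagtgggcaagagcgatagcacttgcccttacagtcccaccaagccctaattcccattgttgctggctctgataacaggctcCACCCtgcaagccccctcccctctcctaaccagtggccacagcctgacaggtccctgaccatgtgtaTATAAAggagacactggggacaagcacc
Hbb-y: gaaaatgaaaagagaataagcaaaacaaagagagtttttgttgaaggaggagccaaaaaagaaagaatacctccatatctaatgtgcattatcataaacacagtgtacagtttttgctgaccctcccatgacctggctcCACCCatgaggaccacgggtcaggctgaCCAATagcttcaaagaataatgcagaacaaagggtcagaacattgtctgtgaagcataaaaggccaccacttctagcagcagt
Hba-x held CACCC at 2 places and TATAAA at 1, and Hbb-y held CACCC and CCAAT at 1 place each, with no overlap between motifs. Of all 32851 RefSeq promoters of the same length, 52.01% held CACCC, 33.85% CCAAT and 12.37% TATAAA.

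Hba-x measured 11500, 11558 and 12927 at E12.5 and 147, 217 and 165 at E18.5 (-5.97 ± 0.50, adjusted p = 1.96e-08). Hbb-y measured 15510, 14996 and 13777 at E12.5 and 569, 1070 and 1085 at E18.5 (-4.05 ± 0.36, adjusted p = 1.98e-08). Hbb-bh1, another embryonic beta-like globin, measured 16256, 14920 and 2475 at E12.5 and 6, 5 and 7 at E18.5 (-8.53 ± 1.30, adjusted p = 3.09e-05). The groups did not overlap for any of these globins, and Hbb-bh1 alone was uneven at E12.5, with array 3 far below the others. Its E18.5 values lie below the 17 added to each intensity, so the size of its difference depends on that number (-10.27 with 1 added, -6.85 with 68) and is no measured fold. Of 4 globins measured, 3 fell, and the adult beta globin Hbb-b2 did not pass (-0.92). The adult alpha globin Hba-a1 lay below the filter, at 77.2, 28.2 and 55.5 at E12.5 and 78.3, 72.4 and 85.9 at E18.5. Probe sets that match several genes were not used for genes, so the level of adult alpha globin is not shown by these values.

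Of 11 erythroid genes measured, 9 fell, 1 rose and 1 did not pass, with a median of -3.55. Slc4a1, the anion exchanger of the red cell membrane, measured 12391, 9704 and 3214 at E12.5 and 229, 187 and 272 at E18.5 (-4.91 ± 0.72, adjusted p = 2.07e-05). The blood group gene Kel (-4.52) and Hemgn, a nuclear protein of erythroid precursors (-4.62), fell. Klf1 (-3.42) and Gata1 (-2.14), transcription factors of red cell precursors, were among the 9. Sptb, the erythroid and muscle spectrin beta chain, was the member that rose (0.55), although 1 of its 2 probe sets was called higher and the other lower. E12.5 array 3 was the lowest of its group for Slc4a1, Kel (579 against 7879 and 4973) and Hemgn (493 against 10538 and 1830), yet each stayed above all E18.5 arrays.

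Genes of the cell cycle were lower at E18.5. Promoters are shown for Mki67, the proliferation marker Ki-67, Top2a, a topoisomerase of dividing cells, and Ncapd2, a condensin subunit. They are examples that hold both CCAAT and TTTGAA, which most promoters of the mitosis list do not. Each run is the 250 bases before the annotated start (RefSeq, GRCm38.p6, minus strand), Mki67 at chr7:135716380-135716629, Top2a at chr11:99024190-99024439 and Ncapd2 at chr6:125191587-125191836. Capitals mark CCAAT or its reverse ATTGG, and TTTGAA or its reverse TTCAAA.
Mki67: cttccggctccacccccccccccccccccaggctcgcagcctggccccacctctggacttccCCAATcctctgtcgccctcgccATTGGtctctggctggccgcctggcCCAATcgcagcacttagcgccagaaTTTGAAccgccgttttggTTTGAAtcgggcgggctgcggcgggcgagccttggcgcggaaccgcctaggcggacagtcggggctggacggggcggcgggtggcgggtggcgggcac
Top2a: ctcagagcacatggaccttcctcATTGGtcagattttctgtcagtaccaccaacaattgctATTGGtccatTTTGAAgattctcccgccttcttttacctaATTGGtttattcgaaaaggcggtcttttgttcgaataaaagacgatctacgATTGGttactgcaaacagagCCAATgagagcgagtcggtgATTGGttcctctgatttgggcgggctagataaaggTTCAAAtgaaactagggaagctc
Ncapd2: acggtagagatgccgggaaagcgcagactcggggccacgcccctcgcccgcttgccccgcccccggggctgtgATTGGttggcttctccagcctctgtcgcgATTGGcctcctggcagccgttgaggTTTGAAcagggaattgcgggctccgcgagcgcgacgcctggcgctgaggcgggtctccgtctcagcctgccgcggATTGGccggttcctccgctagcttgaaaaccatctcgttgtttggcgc
Top2a held CCAAT at 6 places, and Mki67 and Ncapd2 at 3 each, without overlap with TTTGAA. Of 47 promoters of the mitosis list, for 45 genes matched by symbol, 72.34% held CCAAT and 36.17% TTTGAA, against 33.85% and 15.99% of all promoters. Both motifs were held by 31.91% of the mitosis promoters, against 5.55% of all promoters. For the promoters of members that fell and of members that did not pass, the CCAAT shares were 80.77% of 26 and 63.16% of 19. The TTTGAA shares were 38.46% and 31.58%.

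Of 52 mitosis and cytokinesis genes measured, 32 fell and none rose, with a median of -0.45. Mki67 measured 9959, 3991 and 3578 at E12.5 and 2389, 2713 and 2264 at E18.5 (-1.09 ± 0.21, adjusted p = 0.000305). Top2a measured 6509, 4209 and 4024 at E12.5 and 3188, 3230 and 3210 at E18.5 (-0.58 ± 0.13, adjusted p = 0.00157). Ncapd2 measured 4818, 2870 and 2569 at E12.5 and 1591, 2025 and 1801 at E18.5 (-0.87 ± 0.15, adjusted p = 0.000141). The groups did not overlap for these genes, and E12.5 array 1 was the highest array each time. That array was also the highest in erythroid genes, and the part of red cell precursors in the mitotic difference was not tested. Without it 12 mitosis genes fell, without both arrays with liver or lung genes 33, and 7 when only the 6 atrial arrays were fitted. Mki67 (adjusted p = 0.0664) and Top2a were not called in the fit of 6 arrays.

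DNA replication genes fell as well, 31 of 43 measured, with none higher and a median of -0.62. Without E12.5 array 1 the count was 22. Pole, the catalytic subunit of the leading strand polymerase, measured 707, 598 and 524 at E12.5 and 184, 339 and 361 at E18.5 (-1.05 ± 0.24, adjusted p = 0.00207). The primase subunit Prim2 fell by 1.05, the DNA ligase Lig1 by 0.95 and Uhrf1, which maintains DNA methylation at replication, by 0.98. For Prim2 the E12.5 arrays lay between 908 and 1366 and the E18.5 arrays between 492 and 546.

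Among 20 regulators of the G1 phase, 10 fell and 2 rose. The cyclin Ccnd3 measured 8635, 5765 and 5318 at E12.5 and 3916, 3684 and 3630 at E18.5 (-0.78 ± 0.11, adjusted p = 1.54e-05). E2f2, a transcription factor of S phase genes, fell by 1.92, and the growth factor gene regulator Mycn by 1.30. The CDK inhibitors moved in both directions: Cdkn1c, an imprinted gene, fell by 1.08, and Cdkn1a rose by 0.76. Ccnd1 did not pass (-0.15).

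Of 17 fetal growth and imprinted genes measured, 9 fell and none rose, with 5 falling without E12.5 array 2 or without both arrays with liver or lung genes. Hmga2, a chromatin protein of growing embryonic tissue, measured 3288, 4406 and 1919 at E12.5 and 318, 352 and 363 at E18.5 (-3.08 ± 0.41, adjusted p = 7.55e-06). Igf2bp1, an RNA-binding protein, fell by 1.74 and the glypican Gpc3 by 1.15, both without overlap between the ages. Igf2, the main fetal growth factor, was near the top of the scale at both ages and did not pass (-0.19).

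Of 7 genes of energy transfer, which include creatine and adenylate kinases, myoglobin and adenine nucleotide carriers, 3 rose and none fell. Ckm, the muscle creatine kinase, measured 2274, 316 and 2296 at E12.5 and 12950, 10512 and 11774 at E18.5 (3.28 ± 0.76, adjusted p = 0.0021). Ckmt2, the mitochondrial creatine kinase of muscle, measured 599, 272 and 565 at E12.5 and 4177, 2408 and 2465 at E18.5 (2.64 ± 0.39, adjusted p = 2.01e-05). Cox8b, a muscle isoform of a cytochrome oxidase subunit, measured 465, 354 and 827 at E12.5 and 5014, 4003 and 3922 at E18.5 (3.01 ± 0.42, adjusted p = 1.05e-05). All E18.5 arrays were above all E12.5 arrays for these genes. Ckm was low on E12.5 array 2, and without that array and E18.5 array 3 its difference was 2.34 (adjusted p = 0.0655).

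Fatty acid genes were among the clearest metabolic groups: 18 of 33 measured rose and none fell, with a median of 0.49, and between 14 and 21 rose in the alternatives tried. Cd36, a fatty acid transporter, measured 1458, 1652 and 2791 at E12.5 and 4538, 3713 and 3905 at E18.5 (1.09 ± 0.24, adjusted p = 0.0013). Ppara, a nuclear receptor for fatty acids, rose by 1.68, and Fabp3, the fatty acid binding protein of heart muscle, by 0.91. The acyl-CoA dehydrogenases Acadvl (0.73) and Acadl (0.76) rose, and the transport gene Cpt1a (0.26) did not pass.

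The glucose transporters changed in opposite directions. Slc2a1, the widespread transporter of fetal tissue, measured 6988, 5696 and 5366 at E12.5 and 2713, 2739 and 2452 at E18.5 (-1.18 ± 0.16, adjusted p = 8.29e-06). Slc2a3 fell by 1.90, while Slc2a4, the insulin-responsive transporter of muscle and fat, rose by 0.94. Pygm, the muscle glycogen phosphorylase, rose by 1.02. In all, 8 of 26 measured genes of glucose use rose and 3 fell, and 3 rose without E12.5 array 1, 4 without E18.5 array 1 and 5 without both arrays with liver or lung genes.

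Subunits of the respiratory chain moved little. Of 69 measured, 9 rose and none fell, close to the background of 14.6% of all genes. The median was 0.09. Cox7a1, like Cox8b a muscle isoform, rose from 2124, 1943 and 2025 to 4312, 3796 and 3661 (0.94 ± 0.17, adjusted p = 0.000165), and the complex I subunits Ndufb10 and Ndufa8 rose by 0.71 and 0.54. The count depended on scaling and on single arrays, with 37 under quantile normalization, 4 with each array centred on its median, and 4 without E12.5 array 2, without E18.5 array 1 or without both arrays with liver or lung genes. Of 14 genes of the citric acid cycle 4 rose, among them Ogdh (0.59) and Idh3g (0.55), and 13 rose under quantile normalization.

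Among genes of the contractile apparatus, the clearest changes were in single members and in the Z-disc list. Myom2, an M-band protein, measured 841, 164 and 1676 at E12.5 and 6976, 7085 and 7031 at E18.5 (3.46 ± 0.66, adjusted p = 0.000357). Acta1, the skeletal alpha-actin that fetal hearts also make, measured 6921, 6421 and 6502 at E12.5 and 1699, 1900 and 1724 at E18.5 (-1.89 ± 0.26, adjusted p = 1.21e-05). Myoz2, a calcineurin-binding Z-disc protein, measured 1618, 2249 and 2879 at E12.5 and 6061, 5897 and 5333 at E18.5 (1.39 ± 0.18, adjusted p = 6.5e-06). The arrays of each age lay close together for Acta1, whereas Myom2 differed widely among the E12.5 arrays. Of 14 Z-disc and stretch genes 9 rose and none fell, with 4 without E12.5 array 1 and 5 without E18.5 array 1. Of 18 thin filament genes 3 rose and 4 fell, among them the elongation factor Lmod2 (0.99), and the count of those that fell was 2 without E12.5 array 2, E18.5 array 1 or E18.5 array 2, and 1 without both arrays with liver or lung genes. Of 12 thick filament and M-band genes 2 rose and 1 fell, with a median of -0.13. The shares higher and lower were 16.7% and 22.2% for thin filament genes and 16.7% and 8.33% for thick filament genes. Of all genes tested 14.6% were higher and 12.8% lower. The ventricular and slow genes Myl2, Myl3 and Myh7 overlapped between the ages and did not pass, and followed the arrays that were high in ventricular genes.

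Genes of the sarcoplasmic reticulum, which releases and takes up calcium at each beat, changed in 13 of 18 cases: 9 rose and 4 fell. The calsequestrins, which store calcium, moved apart. Casq2, the cardiac form, measured 2277, 2396 and 6189 at E12.5 and 8467, 7207 and 7881 at E18.5 (1.27 ± 0.31, adjusted p = 0.00315), and Casq1, the skeletal form, measured 8091, 6432 and 6656 and then 2721, 3499 and 2484 (-1.29 ± 0.19, adjusted p = 2.88e-05). Without both arrays with liver or lung genes Casq2 rose by 1.05 and was not called (adjusted p = 0.0601). S100a1, a calcium-binding regulator of the pump and release channel, rose by 0.92 and the release channel Ryr2 by 0.49. Pln, the pump inhibitor phospholamban, rose by 1.06, and by 0.84 (adjusted p = 0.0655) without E12.5 array 1. Camk2a, a calcium/calmodulin kinase, fell from 1579, 1124 and 1940 to 208, 181 and 179 (-2.89 ± 0.44, adjusted p = 3.09e-05), and 4 of its 5 probe sets were called lower. Sln measured 3408, 2190 and 6390 at E12.5 and 13562, 12282 and 13483 at E18.5. Its groups did not overlap, but it did not pass (1.85 ± 0.99, adjusted p = 0.183). Sln was called higher in 3 of 18 alternatives: array weights, the compared arrays alone and averaging over probe sets. It did not pass in the others, and its highest adjusted p over the alternatives was 0.474.

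Ion channels showed the potassium channels of the atrial resting potential and repolarisation. Kcnj3, a subunit of the acetylcholine-activated channel, measured 622, 625 and 944 at E12.5 and 1854, 2064 and 2233 at E18.5 (1.49 ± 0.25, adjusted p = 9.13e-05). Kcnq1, of the slow delayed rectifier, rose by 1.02. Kcnip2, the accessory subunit of the transient outward current, rose by 2.30, with 753, 364 and 196 at E18.5 and its highest value on the array highest in ventricular genes. Of 26 channel and connexin genes measured 9 rose and 5 fell, with 3 falling without E18.5 array 2. Without both arrays with liver or lung genes 4 rose and 1 fell. Kcna5, of the ultrarapid current of atrial myocytes, fell from 1700, 1240 and 700 to 686, 498 and 502 (-1.01 ± 0.30, adjusted p = 0.0124), and was not called without E12.5 array 1 (adjusted p = 0.128), without E18.5 array 2 (adjusted p = 0.0505) or without both arrays with liver or lung genes (adjusted p = 0.113).

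The list of atrial chamber genes had 8 of 19 members higher and 2 lower, but the higher count was 2 without E12.5 array 1, 3 without E12.5 array 2, 4 without E18.5 array 1, 2 without E18.5 array 2 and 4 without E18.5 array 3, and 2 without both arrays with liver or lung genes. Bmp10, a secreted signal of cardiac chambers, measured 376, 605 and 921 at E12.5 and 2537, 2210 and 1910 at E18.5 (1.86 ± 0.38, adjusted p = 0.000648), and was called in each of these fits. Nr2f1, an orphan nuclear receptor of atrial identity, fell from 2771, 2491 and 2495 to 1179, 1261 and 1338 (-1.03 ± 0.29, adjusted p = 0.0101), while its relative Nr2f2 did not pass (-0.26). Tbx5 rose by 0.73 (adjusted p = 0.0318), and by 0.41 (adjusted p = 0.298) without E12.5 array 1. It was not called without E18.5 array 2, without E18.5 array 3 or without both arrays with liver or lung genes either.

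Among 31 cardiac transcription factors 9 fell (29.0%, against 12.8% of all genes tested) and 4 rose (12.9%, against 14.6%). Those that fell included factors of the sinus node and venous pole. Shox2, required for the sinus node, measured 2017, 2378 and 1392 at E12.5 and 527, 753 and 495 at E18.5 (-1.67 ± 0.43, adjusted p = 0.00475). Without both arrays with liver or lung genes Shox2 was not called (-1.39, adjusted p = 0.0795) and 5 of the factors fell. Tbx18 fell by 1.11. The count of those that rose was 0 without E12.5 array 1, 8 without E12.5 array 3, 2 without E18.5 array 1 or 2, 1 without E18.5 array 3 and 2 without both arrays with liver or lung genes. Nkx2-5, the core cardiac homeobox factor, did not pass (0.21).

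Of 7 natriuretic peptides and receptors 2 rose, and of 5 measured genes of the adrenergic, muscarinic, endothelin and angiotensin systems 3 rose, with 1 without E12.5 array 1, without E18.5 array 3 or without both arrays with liver or lung genes. The natriuretic peptide receptor Npr2 rose by 0.78 and the angiotensin receptor Agtr1a by 0.96, from 282, 296 and 290 to 704, 559 and 490 (adjusted p = 0.00109). Nppb, of brain natriuretic peptide, measured 4830, 6546 and 8569 at E12.5 and 10230, 9109 and 9949 at E18.5 and did not pass (adjusted p = 0.102). Of 23 targets and receptors of glucocorticoid and thyroid hormones, 12 rose and none fell. Klf9, a zinc finger factor induced by both hormones, measured 363, 296 and 363 at E12.5 and 1313, 1287 and 1400 at E18.5 (1.92 ± 0.22, adjusted p = 1.48e-06), and all 5 of its probe sets were called higher. Klf15, which regulates cardiac lipid use, rose by 2.90, Zbtb16 by 1.80 and the kinase Sgk1 by 1.04.

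The extracellular matrix gave the largest rises. Aspn, the proteoglycan asporin, measured 157, 15 and 88 at E12.5 and 1921, 1988 and 2150 at E18.5 (4.61 ± 0.77, adjusted p = 8.37e-05). Dpt, dermatopontin, measured 475, 68 and 217 at E12.5 and 3608, 4394 and 4399 at E18.5 (4.27 ± 0.74, adjusted p = 0.000119). Each was lowest on E12.5 array 2, and no E12.5 value came near those of E18.5. Of 9 small leucine-rich proteoglycans and dermatopontin 6 rose, with Ogn (1.69) and Bgn (0.83) among them.

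Of 22 collagen genes 11 rose and 4 fell. Col6a3 of the microfibrillar collagen VI measured 746, 981 and 1307 at E12.5 and 3511, 4216 and 4204 at E18.5 (1.99 ± 0.26, adjusted p = 5.37e-06). Col14a1, which binds collagen fibrils, rose by 2.04 and Col15a1 of basement membranes by 1.76. The cartilage collagens Col9a1 (-2.33) and Col2a1 (-2.14) were among those that fell, and Col2a1 was not called without E12.5 array 1 or without E18.5 array 3. Without both arrays with liver or lung genes neither was called (Col9a1 -1.71, adjusted p = 0.0823), and 1 collagen fell.

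Elastic fibre genes rose in 9 of 14 cases and 1 fell. Mfap5, a microfibril protein, measured 89, 152 and 273 at E12.5 and 945, 1168 and 1212 at E18.5 (2.69 ± 0.33, adjusted p = 2.72e-06). Eln, elastin, measured 698, 1666 and 828 at E12.5 and 3282, 4857 and 4881 at E18.5 (2.09 ± 0.51, adjusted p = 0.00303). The growth factor binding protein Ltbp4 rose by 1.68. The count was 3 without E12.5 array 1, 5 without E18.5 array 2, 4 without E18.5 array 3 and 4 without both arrays with liver or lung genes, with Mfap5, Eln and Ltbp4 called in each.

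Genes of the cushions and cardiac jelly, the hyaluronan-rich matrix of the early heart, changed in both directions, 5 higher and 4 lower of 22. These shares, 22.7% and 18.2%, are not far above the 14.6% and 12.8% of all genes tested. Hapln1, which links hyaluronan to versican, fell from 1058, 737 and 268 to 93, 69 and 87 (-2.63 ± 0.53, adjusted p = 0.00054), and versican itself, Vcan, by 0.85. The matricellular proteins Postn (1.69) and Tnc (1.62) rose. The homeobox factors moved apart, Prrx2 lower (-1.93) and Meox1 higher (2.14).

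Genes of the vessel lining and of immune cells had more members higher than the background, and none lower. For mast cell genes the intensity filter in part sets that share, as given below. Of 23 endothelial and endocardial genes 12 rose and none fell, and between 9 and 15 rose in the alternatives. Eng, a co-receptor of TGF-beta and BMP signals, measured 1122, 1716 and 2558 at E12.5 and 4505, 4240 and 5032 at E18.5 (1.42 ± 0.18, adjusted p = 5.08e-06). Cd34, on capillary endothelium, rose by 1.78, and Klf2, which responds to flow, by 1.12. The receptors Kdr (0.08) and Tek (0.04) did not pass, so that members of the list differed widely. Lyve1, on lymphatic endothelium and on some macrophages, measured 557, 531 and 464 at E12.5 and 1873, 2256 and 2258 at E18.5 and is counted in both lists.

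Of 17 macrophage genes 11 rose and none fell, with 8 without E18.5 array 3. C1qa, a complement chain made by macrophages, measured 128, 205 and 449 at E12.5 and 871, 972 and 999 at E18.5 (1.96 ± 0.41, adjusted p = 0.000724). C1qc rose by 1.15 and the transglutaminase F13a1 by 1.06. The defining receptor Csf1r did not pass (0.50). Lyz2, of lysozyme, was highest on the array with lung genes (2930 against 742 and 996), and its rise of 1.30 was not called in the fit of 6 arrays.

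Of 8 mast cell genes 6 were measured, and 5 of these rose. The intensity filter keeps genes that rose from low values and drops those that stayed low, so this count is in part set by it. Below the filter, Mcpt4 measured 16, 9 and 13 at E12.5 and 18, 28 and 14 at E18.5. Ms4a2, also below it, measured 61, 87 and 56 and then 106, 108 and 103. Tpsb2, a tryptase, measured 7, 6 and 7 at E12.5 and 279, 301 and 182 at E18.5 (3.49 ± 0.50, adjusted p = 1.6e-05). Hdc, the enzyme that makes histamine, measured 20, 15 and 18 at E12.5 and 230, 234 and 312 at E18.5 (2.99 ± 0.44, adjusted p = 1.98e-05). At such low E12.5 values the sizes depend on the 17 added to each intensity. Over the alternatives they ranged from 2.09 to 5.025 for Tpsb2 and from 1.93 to 3.81 for Hdc. The carboxypeptidase Cpa3 rose by 1.69, the chymase Cma1 by 1.37 and the receptor Kit by 1.23. The summed intensity of the list was 1000 to 1294 at E12.5 and 2931 to 3467 at E18.5. With the strict intensity filter 1 member was called, and Tpsb2, Hdc, Cpa3 and Cma1 were not tested.

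Of 16 measured genes of the antigen presentation and complement list, which also holds interferon-induced genes, 10 rose and none fell. The count was 6 without both arrays with liver or lung genes. Ifitm3, an interferon-induced membrane protein, measured 1291, 1457 and 1844 at E12.5 and 5082, 5204 and 5945 at E18.5 (1.82 ± 0.16, adjusted p = 1.98e-08). The class I heavy chain H2-D1 rose by 1.05, and all 4 of its probe sets were called higher. B2m, its partner, did not pass (-0.05), though 1 of its 2 probe sets was called higher. Class II genes such as Cd74 (0.41) did not pass.

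Epicardial and mesothelial genes had 3 of 14 higher and 2 lower, near the background. Msln, mesothelin of serous membranes, rose from 152, 110 and 514 to 1019, 1443 and 1924 (2.67 ± 0.41, adjusted p = 3.13e-05). Aldh1a2, the retinoic acid synthesising enzyme of the epicardium, fell by 0.61. The count of those that rose was 1 without E12.5 array 1 or without both arrays with liver or lung genes. Smooth muscle genes were split, with 2 higher and 2 lower of 7, Smtn up by 0.74 and Cnn1 down by 0.93. No neural or neural crest gene of 11 measured passed in limma's test.

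Of 9 liver genes 4 were lower and 1 higher. Without E12.5 array 2, the array with high Alb and Afp, no liver gene was lower, and with E18.5 array 1 or 2 left out 1 was. Ahsg, fetuin A, was the member that rose, from 13, 231 and 65 to 690, 968 and 1174 (3.47 ± 0.79, adjusted p = 0.00175), on all E18.5 arrays and not only on array 3. Of 9 lung and foregut genes 1 was higher, Sftpc, which was not called without E18.5 array 3 or without either of the first 2 E12.5 arrays. Scgb3a2, a secretoglobin of airway epithelium, measured 286, 223 and 206 at E12.5 and 1455, 3021 and 7232 at E18.5, and was highest on the array with lung genes as well.

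Oxygen-regulated and immediate early genes were also higher in part. Of 15 hypoxia response genes 6 rose and 2 fell. Egln3, a prolyl hydroxylase that responds to low oxygen, measured 552, 295 and 342 at E12.5 and 2096, 1714 and 1515 at E18.5 (2.15 ± 0.36, adjusted p = 7.65e-05). Ndrg1 rose by 1.81, Adm by 1.27 and Vegfa by 1.06, while Slc2a1 and Kdm3a (-0.67) fell. Of 18 immediate early and heat shock genes 6 rose and none fell. Fos measured 246, 317 and 328 at E12.5 and 584, 643 and 911 at E18.5 (difference 1.2 ± 0.18, adjusted p = 1.98e-05), Egr1 rose by 1.11 and Fosb by 0.92. Hspa1a did not pass (-0.26).

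The ages between placed these changes in time. Each array was placed on a scale on which the mean of E12.5 is 0% and the mean of E18.5 is 100%, by the mean change of the 1902 genes called higher and the 1664 called lower. The ends of the scale are fixed by that choice, and the 9 arrays between are free. The E13.5 arrays lay at 22.4%, 55.4% and 30.7%, the E14.5 arrays at 53.5%, 59.6% and 23.4% and the E16.5 arrays at 85.5%, 66.1% and 58.7%. E13.5 array 2 and E14.5 array 3 were thus in the reverse order of their labelled days. The E12.5 arrays themselves were spread from -26.3% to 27.8%, with array 3 closest to the older ages, while the E18.5 arrays lay within 99.2% and 100.7%.

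**Figure D3:**
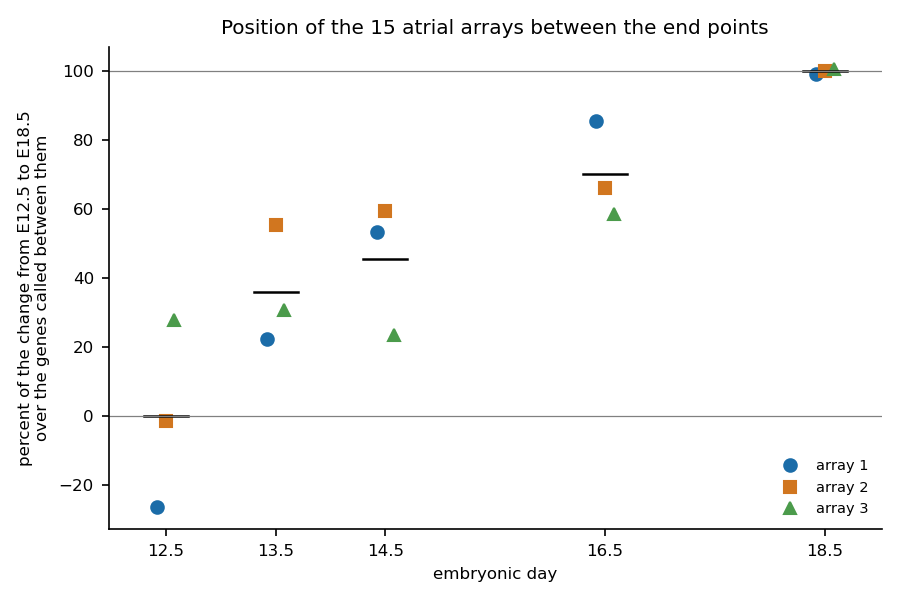
Position of the 15 atrial arrays by embryonic day, as the percent of the mean change from E12.5 to E18.5 over the genes called between those ages. Symbols are arrays and bars the means of 3, which are 36.2% at E13.5, 45.5% at E14.5 and 70.1% at E16.5. E13.5 array 2 (55.4%) lies above E14.5 array 3 (23.4%).

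The same 2 arrays stood out in single genes, which are themselves part of the scale and so illustrate it without adding support. Hbb-bh1 measured 7820, 638 and 3191 at E13.5 and 1156, 206 and 8604 at E14.5. Dpt measured 156, 982 and 227 at E13.5 and 2439, 1437 and 116 at E14.5. Ckm measured 859, 7219 and 1785 at E13.5 and 7389, 12248 and 947 at E14.5. In each gene E13.5 array 2 was on the side of the older embryos and E14.5 array 3 on that of the younger. Not every list followed this order. The mean log2 change of macrophage genes from E12.5 was 0.64 on E14.5 array 3, above the 0.47 of arrays 1 and 2. E14.5 arrays 1 and 2 were high in ventricular genes, with summed intensities of 62379 and 82950 against 23281 on array 3. E14.5 array 1 was also low in atrial chamber genes, at 45464 against 97769 and 78038 on arrays 2 and 3. What sets E13.5 array 2 and E14.5 array 3 apart, and the part of the ventricular signal in it, was not tested.

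The medians of the gene groups against E12.5 are given for each age, with no test of their timing. The E14.5 medians include arrays 1 and 2 and the E16.5 medians array 2, which were high in ventricular genes. Erythroid genes were at -2.27 at E13.5 and -3.55 at E18.5. That early value rests on E12.5 arrays 1 and 2, since E12.5 array 3 had a summed erythroid intensity of 16038, within the 13167 to 19388 of the E13.5 arrays. The 4 measured globins, which do not include adult alpha globin, passed from -0.14 through -0.41 and -1.52 to -5.01. The 6 measured mast cell genes, a selection in part set by the intensity filter, were at 0.44, 0.68, 1.18 and 1.53 at the successive ages. Genes of antigen presentation and complement stood at 0.12, 0.18 and 0.15 until E16.5 and at 0.64 at E18.5. Ifitm3 at E16.5 measured 3386, 2684 and 1890. Elastic fibre genes stood at 0.56, 0.69 and 0.86 before reaching 0.60 at E18.5. Klf9 was near its E12.5 level at E14.5, with 380, 445 and 379, and at 1078, 638 and 531 at E16.5. All genes tested had medians between 0.01 and 0.03 at these ages.

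**Figure D4:**
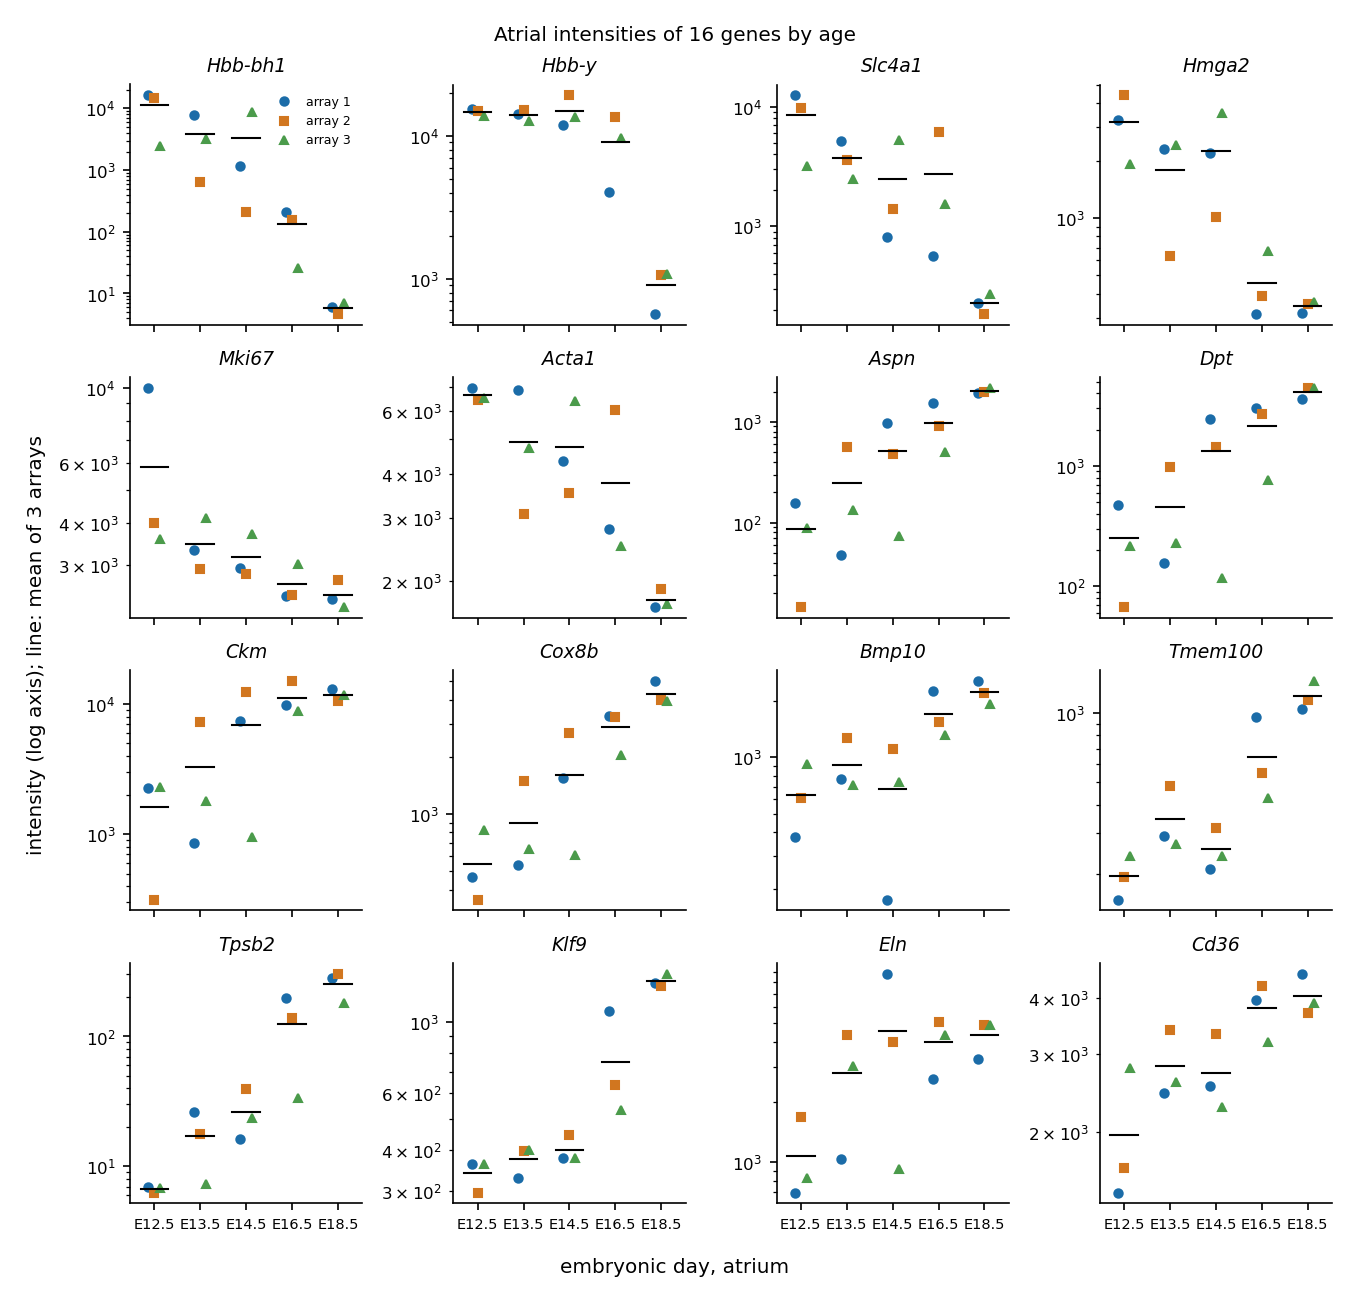
Intensities (log axis) of 16 genes on the 15 atrial arrays by embryonic day, with symbols for arrays and a short line at the mean of 3. Hbb-y was at 11930 or above on all arrays up to E14.5 and was at 569 to 1085 at E18.5, Aspn rose to between 1921 and 2150, and Tmem100 was at 481 or below on all arrays up to E14.5.

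The ventricle was measured over the same period on other arrays. Of the 1902 genes higher in the atrium, 1008 were also among the 1903 higher in the ventricle, which is 53.0% of each list. Of the 1664 lower genes, 857 were among the 2198 lower in the ventricle, 51.5% of the atrial and 39.0% of the ventricular list. Ventricular calls made up 31.6% of all genes tested, 14.7% higher and 16.9% lower, and 28.7% of probe sets. The correlation of both changes over the 12983 genes was 0.648, as a description, with no array shared. The E12.5 ventricular arrays were uneven as well, with Hbb-bh1 at 11010, 554 and 18602.

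The test of the difference between the chambers' changes called 593 genes, 4.57% of those tested, with a higher change in the atrium for 429 (3.3%) and a lower one for 164 (1.26%). Of probe sets 3.78% were called, 2.66% with a higher change in the atrium. Without E12.5 atrial array 1 the probe sets called fell from 1030 to 453, and without E12.5 atrial array 3 they rose to 2015. Without E18.5 atrial array 2 there were 481, without E18.5 atrial array 3 there were 514, and without E12.5 ventricular array 1 or E18.5 ventricular array 2 there were 581 and 558. Of 38 named genes with a called difference, 16 were called without any single array.

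Tmem100, a membrane protein of endothelium that BMP signals induce, had the firmest difference. It measured 155, 193 and 240 in the atrium at E12.5 and 1046, 1137 and 1374 at E18.5, and in the ventricle 277, 270 and 304 and then 235, 199 and 340. The atrial change was 2.51 and the ventricular change -0.16, a difference of 2.67 (adjusted p = 7.41e-06). Over the alternatives the difference was at least 2.28. Bmp10 changed by 1.86 in the atrium and by -0.46 in the ventricle, where it went from 856, 604 and 682 to 516, 400 and 635, a difference of 2.32 (adjusted p = 0.0122, highest adjusted p over the alternatives 0.0577). Eng changed by 1.42 and 0.10, a difference of 1.32 (adjusted p = 0.0035). Of 23 endothelial genes 8 had a higher change in the atrium and none a lower one, against 3.3% of all genes tested.

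Of 26 channel and connexin genes, 3 had a higher and 3 a lower change in the atrium. Kcna5 changed by -1.01 in the atrium and 1.79 in the ventricle (difference -2.80, adjusted p = 0.00022). Cacna1g, a T-type calcium channel, changed by 0.40 and 3.06 (-2.66, adjusted p = 0.00257). Against these, Kcnj3 changed by 1.49 and 0.22 (1.27, adjusted p = 0.0402) and lost its call in 9 of the 12 fits that left out 1 array. Kit changed by 1.23 and -0.50 (1.73, adjusted p = 6.59e-05), the immediate early gene Fos by 1.2 and -0.03 (1.23, adjusted p = 0.00389) and the Z-disc gene Pdlim3 by 1.01 and -0.67 (1.68, adjusted p = 0.0038).

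Metabolic genes had larger counts in the ventricle, but few differences between the chambers passed. Fatty acid genes rose in 28 of 33 cases in the ventricle and 18 in the atrium, respiratory chain genes in 37 of 69 and 9, and citric acid cycle genes in 12 of 14 and 4. The atrial counts depended on scaling, with 37 respiratory chain and 13 citric acid cycle genes higher under quantile normalization. Ventricular list counts were not taken under that scaling. The change was lower in the atrium for 26, 65 and 13 genes of the 3 lists, against 5965 of all 12983 genes. The limma test of the difference called 0 of 33, 2 of 69 and 0 of 14. The 2 were Ndufa9 and Ndufs8, named after their values were seen, with the smaller change in the atrium. The fall of cell cycle genes was not distinguished either, with 0 of 52 mitosis genes and 0 of 43 replication genes called in the difference. Hmga2 fell by 3.08 in the atrium and 3.13 in the ventricle.

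**Figure D5:**
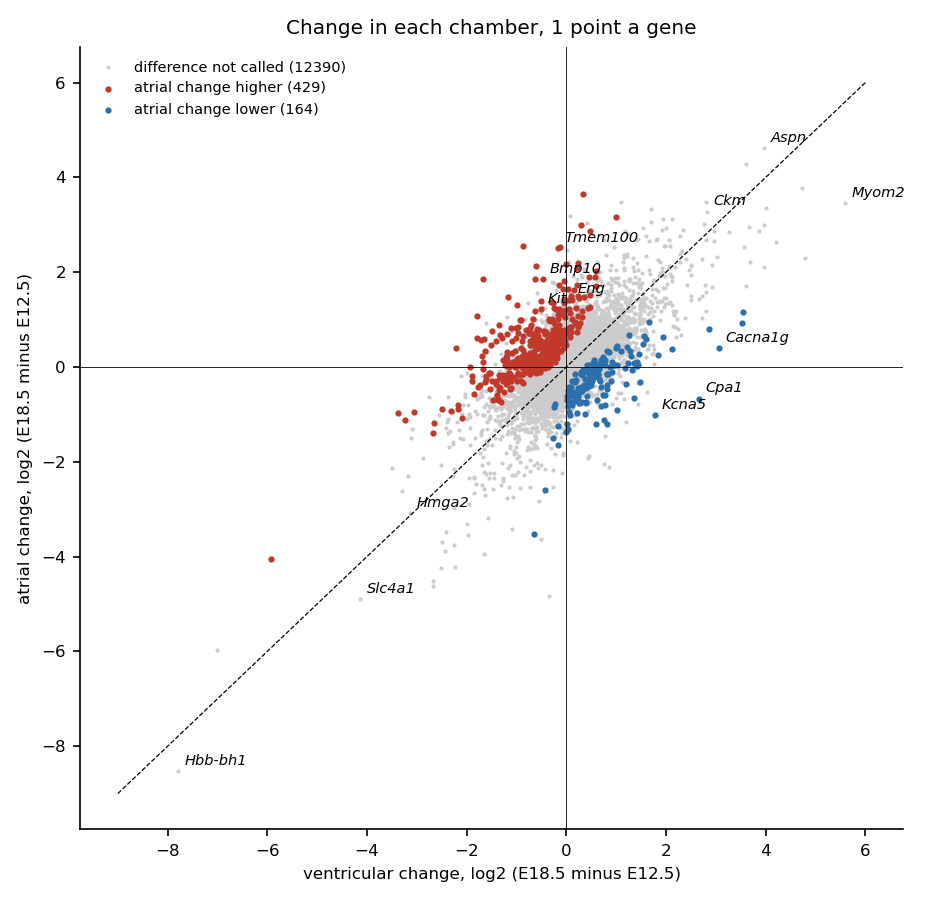
Change from E12.5 to E18.5 in the atrium (vertical) against the ventricle (horizontal), log2, 1 point for each of 12983 genes, with the dashed line at equal change. Red points are 429 genes with a higher atrial change and blue points 164 with a lower one by the test of the difference. Hbb-bh1 and Hmga2 lie near the line, Tmem100 and Bmp10 above it, and Kcna5, Cacna1g and Cpa1 below it.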

How the data were processed

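RNA of 36 samples was measured on Affymetrix arrays with 45101 probe sets. The authors deposited linear intensities, 1 per probe set and array; the software behind them is not given in the sources. Every array had the same 2% trimmed mean, 500, and no further scaling was done. Control probe sets (64) were dropped, and the 27256 that exceeded 171.8 (the overall median) on 3 or more arrays were tested. A pseudocount of 17 was added before log2, which understates changes of weak genes. R 4.3.3 with limma 3.58.1 fitted 12 group means to the 36 arrays (24 residual and 5.68 prior degrees of freedom, intensity trend, two-sided tests, Benjamini-Hochberg adjustment within each comparison). A call is an adjusted p below 0.05.

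For each gene, the probe set of that gene alone whose intensity averaged highest over the 36 arrays was taken (34945 probe sets have 1 symbol, 932 several and 9160 none; annotation from the platform table, which can be old). Of 771 genes in 40 lists, 721 had such a probe set. Members and lists were chosen with earlier results of these data known, so no count supports a list independently. Named genes were the 15 largest called changes in each direction without overlap, up to 5 called members of each list, members that did not pass where their list is described, the 8 largest chamber differences in each direction and a set of heart genes; Klf1, Gata1, Sptb, Acadl, Acadvl, Vcan, Kdm3a, Ndufa9 and Ndufs8 were named outside this rule, after their values were seen. Not every gene the rule allows is printed. The fit was tested on simulated data. The number of arrays limits the precision.

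Alternatives were quantile normalization, centring each array on its median, pseudocounts of 1 and 68, no filter and a strict one (583.3), no trend, array weights, a replicate block, the compared arrays alone, averaging over probe sets and leaving out each array. Leaving out E12.5 array 2 and E18.5 array 3 together was chosen after seeing the data. Deviations of arrays with the same number from their group means correlated at 0.080, 0.035 and 0.0024 between the atrial groups. Between atrium and ventricle the values were -0.053, -0.170 and -0.255 at E12.5 and -0.091, -0.129 and 0.026 at E18.5. Atrial and ventricular arrays of unlike number at E12.5 correlated at between -0.164 and 0.301. The values show no pairing by number of the atrial groups or the chambers, but with 3 arrays a group they cannot exclude one. Between the ventricular groups the values for the same number were all positive, at 0.058, 0.233 and 0.111. The main fit used no pairing. Promoters are from RefSeq.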

Additional observations from a re-analysis of the deposited data

Results flagged for a closer look

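For 38 named genes, atrium and ventricle changed unequally over the period by the test of the difference itself. Values are the atrial minus the ventricular change in log2. The following 16 were called without any single array. A higher atrial change was found for Lyz1 (3.52), Lyz2 (2.29), Thbs3 (2.72), Hdc (2.70), Tmem100 (2.67), Myh8 (2.16), Ednrb (1.90), Kit (1.73), Pdlim3 (1.68), Eng (1.32) and Fos (1.23). A lower one was found for Cpa1 (-3.33), Kcna5 (-2.80), Cacna1g (-2.66), Rtl3 (-2.59) and Aldh1a2 (-1.03). Lyz1 was highest on the E18.5 atrial array with lung genes, at 3796 against 822 and 976.

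The other 22 lost the call without at least 1 array. A higher atrial change was found for Has1 (3.43), Scgb3a2 (3.33), Dhx38 (2.86), Kcnc2 (2.66), Gja5 (2.42), Bmp10 (2.32), Mlana (2.16), Mybphl (1.92), Hbb-y (1.87), Tnc (1.48), Cnn1 (1.38), Tnnt1 (1.38), Tbx5 (1.36), Kcnj3 (1.27), Egr1 (1.18), Fosb (1.16) and Cdkn1c (1.01). A lower one was found for Rhd (-2.87), Steap4 (-2.39), Reln (-2.15), Ankrd23 (-2.06) and Myh6 (-0.73). No group had the 4 to 10 arrays that a test for a single outlying array needs.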

How the results depend on the processing

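The counts stayed within 1.5 times of those reported under most alternatives. For the atrium (6610 probe sets) the exceptions were array weights, with 12642, the 6 arrays alone, with 4051, and both arrays with liver or lung genes left out, with 4034; leaving out single arrays gave 3821 to 7409. For the chamber difference (1030) they were array weights with 4733, median centring with 425, the 12 arrays alone with 407 and both arrays left out with 420; leaving out single arrays gave 453 to 2015. The ventricular count (7835) stayed between 5774 and 7769 without single arrays. The replicate number as a block gave 6495, 7728 and 946. The atrial share of higher calls was 51.8% as reported, 46.7% with median centring and 47.6% with array weights. Median centring moved the share of ventricular calls that were higher from 44.3% to 56.4%, and that of the difference from 70.3% to 59.3%; array weights gave 57.6% for the difference. Signs turned for 24 values, none of them called as reported. Under quantile normalization these were Igf2 (0.0397), Myh6 (0.11), Myl4 (0.0238), Myl7 (0.0192), Nppa (0.0660), Tnni1 (0.0201) and Tnnt2 (0.0756). With array weights they were Irx4 (-2.03) and Myh7 (-0.83), and with the mean of probe sets Atp2a2 (0.18), Igf2bp3 (-0.59, adjusted p = 4.2e-05 by limma), Myh6 (0.13) and Myl4 (0.36). Without E12.5 array 1 Irx4 was at -0.11, without E12.5 array 3 Irx4 at -0.44 and Myh7 at -0.14, without E18.5 array 1 Irx4 at -0.79 and Myh7 at -0.06, and without E18.5 array 3 Myl2 at 0.13 and Myl3 at 0.0814. Over the fits without 1 array, Myh7 ranged up to 1.2, Myl2 down to -1.83 and Myl3 down to -0.84. Without both arrays, Ccnd1 was at 0.0172, Hey2 at 0.32, Myl2 at 0.65 and Myl3 at 0.33. The cause was not tested.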

Other observations

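Several of the largest changes fell outside the groups above. Dhrs7c, a dehydrogenase of the sarcoplasmic reticulum, measured 26, 12 and 6 at E12.5 and 607, 371 and 286 at E18.5 (3.77, adjusted p = 0.000218 by limma). Aoc3, a vascular amine oxidase, measured 66, 13 and 25 at E12.5 and 541, 429 and 432 at E18.5 (3.35, adjusted p = 0.000164 by limma). Cp, the copper protein ceruloplasmin, measured 35, 21 and 10 at E12.5 and 259, 353 and 504 at E18.5 (3.33, adjusted p = 3.33e-06 by limma). These genes were chosen for large changes without overlap between the ages. Each had E12.5 values below the 17 added to each intensity, so the size of its difference depends on that number. Over the alternatives the difference ranged from 2.52 to 4.87 for Dhrs7c, 2.41 to 4.005 for Aoc3 and 2.27 to 4.15 for Cp. Mlana, known as a melanocyte antigen, measured 73, 40 and 11 at E12.5 and 353, 572 and 451 at E18.5 (3.16, adjusted p = 2.32e-06 by limma), a larger change than in the ventricle (difference 2.16, adjusted p = 0.0197 by limma). Myh8, the perinatal skeletal myosin heavy chain, measured 67, 50 and 95 at E12.5 and 320, 455 and 340 at E18.5 (2.16), larger than in the ventricle (difference 2.16, adjusted p = 0.0101 by limma). Cidea, a lipid droplet protein of brown fat, measured 13, 17 and 17 at E12.5 and 257, 217 and 125 at E18.5 (2.67, adjusted p = 0.00474 by limma). Its difference ranged from 1.64 to 3.52 over the alternatives. Of 9 brown fat genes 3 were measured and 2 rose. Ucp1, Pparg and Adipoq lay below the filter and overlapped between the ages, with Ucp1 at 17.9, 14.1 and 16.8 at E18.5.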
